A study of Caenorhabditis elegans with 2 samples.

Results

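The mog genes take their name from masculinization of the germ line: in Caenorhabditis elegans hermaphrodites that lose one of them, germ cells go on making sperm and do not switch to oocytes. Their products are splicing proteins. mog-1, mog-4 and mog-5 encode DEAH-box RNA helicases, ATP-driven enzymes that remodel the spliceosome as it is activated, carries out its reactions and lets go of the spliced mRNA. mog-2 encodes protein A' of the U2 snRNP, the particle that binds the branch site, and mog-3 a homolog of the splicing factor CWC25, which acts at the first catalytic step. The mog genes are needed to keep the sperm-promoting gene fem-3 in check, which lets oogenesis begin.

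The members described here are the 5 listed genes mog-1, mog-2, mog-3, mog-4 and mog-5, of 19973 protein-coding and 46890 annotated genes, and they are given by name, with no threshold on a measured value, although earlier results of these data were known when the group was proposed. All 5 were found in the annotation. Chromatin bound by SNU-23, a spliceosomal protein, was sheared by sonication, pulled down through a GFP tag and sequenced (ChIP-seq). There was 1 group, of 2 biological replicates: whole hermaphrodite L1 larvae of strain OP528, synchronised by bleaching and starvation and collected 6 hours later. They carry the transgene wgIs528, a fosmid in which snu-23 is fused to TY1, EGFP and 3xFLAG, together with unc-119(+), in an unc-119(tm4063) background. There is no second group, and no control sample was analysed here. First-stage larvae hold only the founder cells of the germ line, and whole animals were used, so signal from germ cells and from the body cannot be told apart. A peak's signal is the authors' own value relative to a control, whose scale differs between lists. The lists hold no read numbers, so the depth behind a signal is unknown and the spread between the replicates is the only error given.

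The authors' final list of 6675 peaks on the build ce11 holds signals between 71.7 and 2804, with a median of 158. It was made from 30000 candidates of each replicate and 30000 of both replicates pooled. Genes with a final summit no more than 500 bp from the annotated 5' end are called marked, and mog genes were also searched over their whole length. Candidates of both replicates stood within 200 bp of 6631 final summits. At these the ratio of replicate 2 to replicate 1 had a median of 1.15, and its log2 value varied with an SD of 0.42. The gene snu-23 itself, which the transgene also carries, had a final peak 71 bp upstream with signal 119.

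The sequences at the 5 sites are shown because they surround the summits of the tagged protein's peaks. Each is the strand of the gene on WBcel235, the assembly that ce11 names, 5' to 3', 100 bp to either side of the summit. They were read from RefSeq's copy of the genome. Their length is fixed and differs from that of the peaks. Final peaks were 124 bp wide at mog-1, 253 bp at mog-3, 412 bp at mog-4 and 193 bp at mog-5. The sites are chrIII:9956246-9956446 (minus strand) for mog-1, chrII:4322947-4323147 (plus) for the site upstream of mog-2 that is described further on, chrIII:5308353-5308553 (plus) for mog-3, chrII:14561737-14561937 (minus) for mog-4 and chrII:5399277-5399477 (plus) for mog-5. Capitals mark GCGC and GAGAGA on either strand.
mog-1: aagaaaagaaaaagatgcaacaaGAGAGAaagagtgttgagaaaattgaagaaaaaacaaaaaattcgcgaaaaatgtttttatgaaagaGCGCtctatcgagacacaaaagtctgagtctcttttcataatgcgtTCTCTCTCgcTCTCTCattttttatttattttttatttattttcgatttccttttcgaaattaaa
mog-2, upstream site: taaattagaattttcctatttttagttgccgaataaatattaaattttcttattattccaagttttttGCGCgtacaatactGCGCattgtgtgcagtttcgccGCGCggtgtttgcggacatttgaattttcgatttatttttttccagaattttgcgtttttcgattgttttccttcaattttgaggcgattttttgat
mog-3: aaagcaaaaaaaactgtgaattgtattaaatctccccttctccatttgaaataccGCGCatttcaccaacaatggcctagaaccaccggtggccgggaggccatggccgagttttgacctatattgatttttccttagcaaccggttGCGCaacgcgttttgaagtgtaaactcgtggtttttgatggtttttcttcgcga
mog-4: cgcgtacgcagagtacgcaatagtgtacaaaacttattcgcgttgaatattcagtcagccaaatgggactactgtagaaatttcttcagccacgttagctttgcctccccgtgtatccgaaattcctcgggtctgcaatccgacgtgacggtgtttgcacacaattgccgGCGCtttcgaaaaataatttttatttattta
mog-5: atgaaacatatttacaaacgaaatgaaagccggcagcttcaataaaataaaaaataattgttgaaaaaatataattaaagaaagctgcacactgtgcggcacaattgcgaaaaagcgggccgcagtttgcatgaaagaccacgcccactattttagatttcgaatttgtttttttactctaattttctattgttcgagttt

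The windows were unlike one another in composition. GC content was 44.3% at mog-3 and 43.8% at mog-4, and 33.3% at mog-5, 32.3% upstream of mog-2 and 29.4% at mog-1. All 6675 final summits, in windows of the same length, had a median of 42.3%, with 5th and 95th percentiles of 32.3% and 53.7%, so the mog-1 window lay below that range. GCGC, which reads the same on both strands, was present at 4 of the 5 sites and absent at mog-5, and 47.0% of all final windows hold it. GAGAGA was present at mog-1 alone, against 43.8% of all final windows, and TATAAA at 0 of the 5 sites, against 12.9%. These are matches of letters and not binding sites.

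The genes mog-4, mog-3, mog-5 and mog-1 had a final peak just upstream, and mog-2 had none. Thus 4 of 5 mog genes were marked, against 16.8% of all coding genes (3355 of 19973). The median offset of the marked mog genes was -152 bp, upstream of the annotated 5' end. No final summit lay inside any mog gene, from the 5' end to the 3' end, so the wider rule, which counts the gene body too, also gave 4 of 5, against 20.9% of coding genes. Among the strongest 6675 candidates of replicate 1 alone 4 of 5 were marked, against 17.1% of coding genes, and among those of replicate 2 alone 3 of 5, without mog-5, against 17% (3387 of 19973). The count was 4 of 5 within 250 bp, against 11.4%, and within 1000 bp, against 21.4%. With summits assigned to the nearest coding 5' end alone it was 4 of 5, against 13.7%. The stronger 3337 final peaks held 2 of 5, mog-4 and mog-3, against 10.8%. With as many pooled peaks as the final list on ce10 the count was 4 of 5, against 19.7%. Any pooled candidate at the 5' end was present at 4 of 5, against 33.0%, and at the 5' end or in the gene at 4 of 5, against 40.7%. The 4 peaks covered a 9.85-fold range of pooled signal. The 3 helicase genes held both ends of it.

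The strongest was at mog-4 (WBGene00003392, chrII:14552504-14561599, minus strand, 9096 bp with 9 introns), which encodes the relative of a yeast helicase that activates the spliceosome. Its signal was 436 in replicate 1 and 552 in replicate 2, and 897 in the pooled list. It ranked 121 in replicate 1, 91 in replicate 2 and 130 in the final list. The summit was 238 bp upstream in each of these lists, to the base. By signal it was number 93 of the 3355 marked coding genes. The nearest coding gene on the upstream side, madf-5, is 12015 bp away. Inside the gene the pooled list had candidates 934 bp downstream of the 5' end, in an exon, and 6375 bp downstream, in an intron, with signals of 16.1 and 23.5. Both lay far below the weakest final peak.

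The next was at mog-3 (WBGene00003391, chrIII:5308596-5311140, plus strand, 2545 bp with 6 introns). It had 136 in replicate 1, 123 in replicate 2 and 262 in the pooled list, at rank 1815. The summits stood 148, 144 and 143 bp upstream. Replicate 2 had another candidate 59 bp downstream of the 5' end, in an exon, with a signal of 40.1 and rank 6664. Replicate 1 had none there, and the pooled candidate at 56 bp downstream reached only 15.3. That secondary position is therefore seen in replicate 2 alone among the single replicates.

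The weakest was at mog-1 (WBGene00003389, chrIII:9952060-9956215, minus strand, 4156 bp with 6 introns), which encodes the relative of a yeast helicase needed for the second catalytic step. It had 43.8 in replicate 1, 43.5 in replicate 2 and 91.0 in the pooled list, at rank 5545. The summits stood 144, 140 and 131 bp upstream. The 2 replicates had nearly the same value, and the peak was in the lower part of the final list: 9.81% of marked coding genes had a weaker one. Further upstream, on the side of the divergent gene alx-1, only weak candidates stood, the highest pooled one at 20.3.

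The peak at mog-5 (WBGene00003393, chrII:5399538-5405810, plus strand, 6273 bp with 5 introns), which encodes the helicase related to the yeast enzyme that releases the mRNA, had a matching candidate in replicate 1 only. It had a signal of 63.5 in replicate 1, at rank 3935, and 114 in the pooled list, at rank 4552, with the summit 161 bp upstream in both. Replicate 2 had no candidate at this position: its nearest summit was 458 bp away, at 619 bp upstream, with a signal of 10.6. That position is next to the 5' end of fbxl-3, and replicate 1 and the pooled list had weak candidates there too, the pooled one at 18.5. Only 44 of the 6675 final peaks (0.659%) lacked a candidate within 200 bp in at least one replicate, 21 of them in replicate 1 and 23 in replicate 2. The pooled signal at mog-5 was 1.80 times that of replicate 1. Over all final peaks with a replicate 1 candidate this ratio had a median of 2.15, with 5th and 95th percentiles of 1.75 and 2.81. Whether reads of replicate 2 piled up at mog-5 was not analysed here, since the lists give peaks and not coverage.

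**Figure D1:**
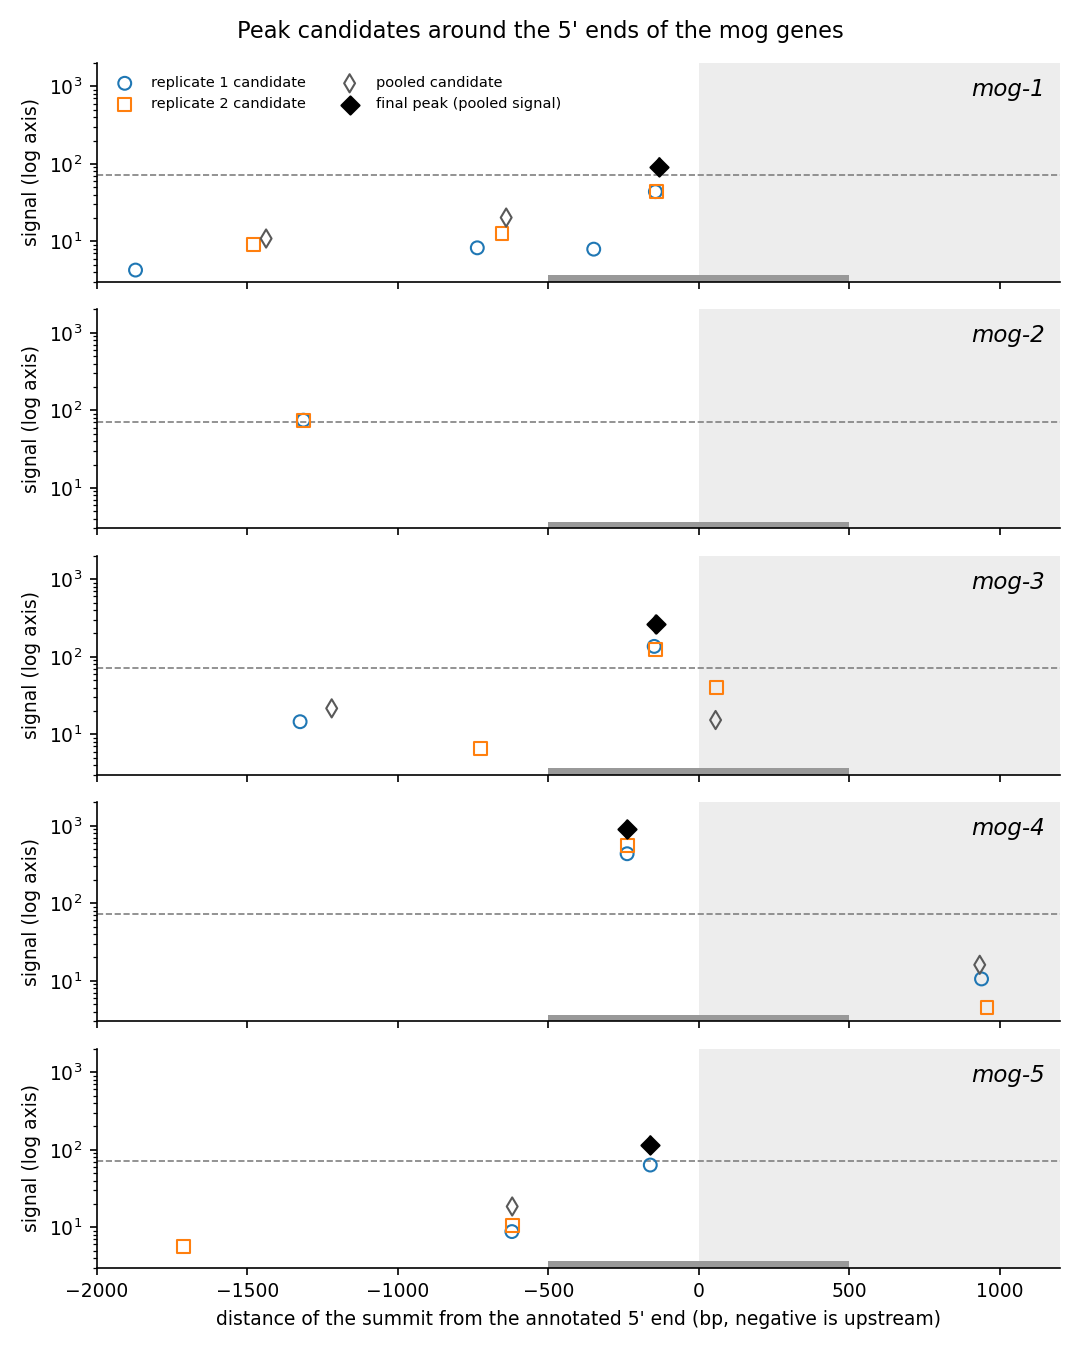
Each panel shows 1 mog gene, with the distance of nearby peak summits from the annotated 5' end in bp on the x axis and its signal on a log axis. Open circles, squares and diamonds are candidates of replicate 1, replicate 2 and the pooled list, filled diamonds are final peaks, the grey area is the gene, the bar on the axis is the 500 bp window and the dashed line is the lowest final signal, 71.7. Filled diamonds stand between 131 and 238 bp upstream at mog-1, mog-3, mog-4 and mog-5, no square accompanies the one at mog-5, and mog-2 has only a circle and a square, 1314 and 1313 bp upstream.

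In order of pooled signal, mog-4 stood 3.42-fold above mog-3, mog-3 2.29-fold above mog-5, and mog-5 1.26-fold above mog-1. The first of these steps is 1.78 and the second 1.20 on the log2 scale, both larger than the SD of 0.42 of the log2 ratio between replicates. The step between mog-5 and mog-1, 0.33, is smaller, and these genes were not ordered here. In replicate 1 mog-5 stood above mog-1, at 63.5 and 43.8. In replicate 2 only mog-1 had a candidate, at 43.5. The SD of 0.42 is of single replicates at the 6631 peaks matched in both, a set without mog-5. The spread at mog-5 was therefore not measured, and the SD is only a rough scale for differences in pooled signal. The ratio of replicate 2 to replicate 1 was 1.27 at mog-4, 0.903 at mog-3 and 0.993 at mog-1, on either side of the list's median of 1.15. By distance in log10 signal over the 2 replicates, among 3326 coding genes with a value in both, the nearest gene to mog-4 was C34C12.8 (436 and 549), to mog-3 syf-3 (136 and 125) and to mog-1 atrn-1 (43.7 and 43.9). With 2 values a gene, such likeness says only that the peaks are of the same height.

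**Figure D2:**
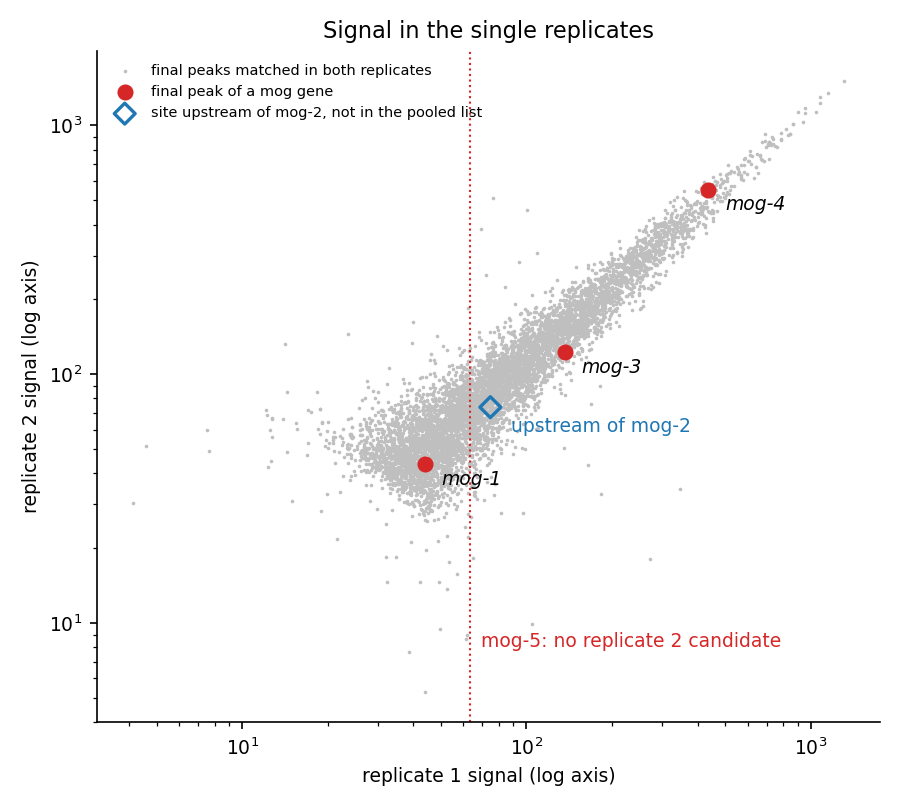
Signal in replicate 1 (x) and replicate 2 (y), both on log axes, for the 6631 final peaks with a candidate in each replicate (grey), the final peaks of mog-4, mog-3 and mog-1 (filled circles) and the site upstream of mog-2 (open diamond). The dotted line is the replicate 1 signal of mog-5, which has no replicate 2 candidate. The site upstream of mog-2, at 74.6 and 73.8, stands above mog-1, at 43.8 and 43.5, although only mog-1 has a final peak.

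The one unmarked member, mog-2 (WBGene00003390, chrII:4324361-4326042, plus strand, 1682 bp with 1 intron), had no candidate of any list within 500 bp of its 5' end or inside the gene. Its annotated 5' end follows the 3' end of H20J04.6, a same-strand gene that RefSeq names a transmembrane protein, by 125 bp. Both replicates had a peak upstream of H20J04.6. The summits stood 209 and 208 bp upstream of that gene, and 1314 and 1313 bp upstream of mog-2. The signal was 74.6 in replicate 1 and 73.8 in replicate 2, at ranks 3326 and 3876, within the strongest 6675 of each list and above the values of mog-1 in both. The pooled list had no candidate there: its nearest summit was 10982 bp away, so the site could not enter the final list.

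The missing pooled candidate was part of a wider gap. Around mog-2 the pooled list had no candidate over 34588 bp, a stretch with the 5' ends of 12 coding genes. The single replicates had few candidates there too, 3 in replicate 1 and 2 in replicate 2. How many they hold in other stretches of this length was not counted. The median distance between neighbouring pooled candidates was 1090 bp, and 1.49% of the distances were at least as long. That share counts distances and not sequence. Long stretches cover more of the genome than their number, so a gene lies in one more often than 1.49% of the time. Across the genome, 5919 of the strongest 6675 peaks of replicate 1 had a partner within 200 bp among those of replicate 2, and 66 of these (1.12%) had no pooled candidate within 500 bp. The splicing gene rnp-2, described further on, was near another such site. Whether these 66 sites lie in long gaps was not examined, and why their pooled candidates are missing was not tested.

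The mog genes differ in how they sit among their neighbours, and this was set beside marking in all coding genes. Close runs were defined, after the values were seen, as neighbouring coding genes on one strand with at most 200 bp between them. Genes of worm operons are closely spaced in this way and share the promoter of the first, but operon annotation was not used here. mog-2 was the later gene of a run of 2. mog-1 was the first of 3, followed after 95 bp by K03H1.11, and mog-3 the first of 3, followed after 99 bp by pqe-1. mog-4 and mog-5 were in no run. Of later genes, 8.52% were marked (202 of 2370, exact 95% interval 7.43 to 9.72%), of first genes 36.0% (688 of 1909, 33.9 to 38.2%), and of genes in no run 15.7% (2465 of 15694, 15.1 to 16.3%). The single replicates gave 8.78% and 8.57%, 36.5% and 36.7%, and 16.0% and 15.8%. These shares are a description with no test: neighbouring genes can share a peak and are not independent, and the intervals cover counting error only. The later genes K03H1.11 and pqe-1 had no final peak. At pqe-1 a pooled candidate 33 bp downstream of the 5' end reached 10.9.

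**Figure D3:**
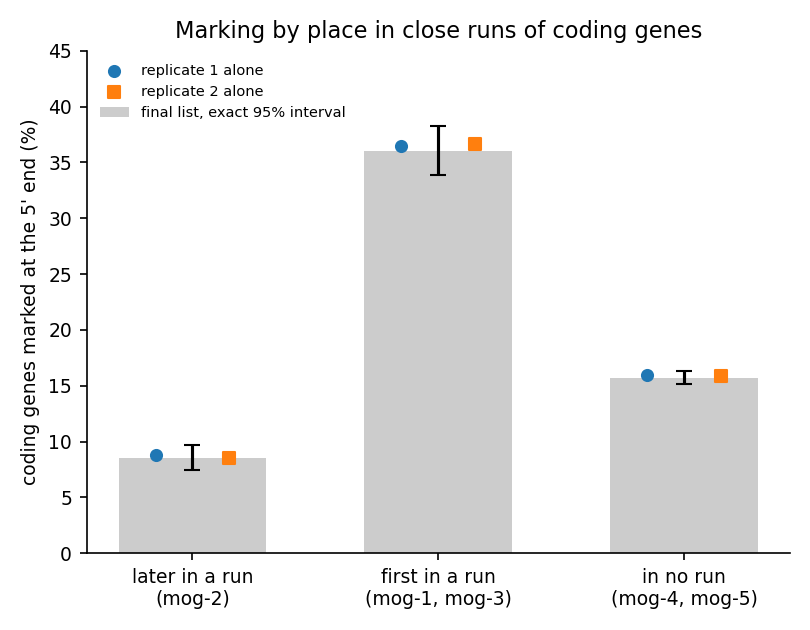
Bars give the percent of coding genes marked in the final list, with exact 95% intervals, for later genes of close runs, first genes of runs and genes in no run, and the mog genes of each kind are named under the axis. Circles and squares give the same percent from the strongest 6675 peaks of replicate 1 and of replicate 2. The bars stand at 8.52%, 36.0% and 15.7%, and the replicates lie within 1 percentage point of them.

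The bases just before the annotated 5' ends are shown because offsets are counted from there. Most worm mRNAs receive a spliced leader, which replaces the first stretch of the transcript, and the annotation then begins at the acceptor, just after an AG. The 30 bases before the 5' end are printed for each gene, from RefSeq's copy of WBcel235, with the AG that borders the 5' end in capitals. They lie at chrIII:9956216-9956245 (minus), chrII:4324331-4324360 (plus), chrIII:5308566-5308595 (plus), chrII:14561600-14561629 (minus) and chrII:5399508-5399537 (plus).
mog-1: ttagtttttcttaaattctttattttttAG
mog-2: ttttttacattgaaaaccccctaattccAG
mog-3: tcgtttaaaatcgttcattaatcgattttt
mog-4: caattttcctgtaattatccaactttccAG
mog-5: tttattaaattttttatctgtaaatttcAG
Of the 5 genes, 4 have AG directly before the 5' end, as do 27.6% of all coding genes (5510 of 19973). At mog-3 it is absent from the Ensembl 5' end, but RefSeq starts the gene 6 bp further in, where the bases before it are aaaatcgttcattaatcgatttttgttcAG. Trans-splicing was not measured here, and a match of these letters does not show it.

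Other genes were taken from 5 lists drawn up for splicing and for the sperm to oocyte switch. Of their 57 symbols 55 were found, and sap-1 and slu-7 were not matched. Altogether 26 of the 55 (47.3%) were marked, with 29 unmarked, beside 4 of 5 mog genes and 16.8% of all coding genes. Among marked genes the median pooled signal was 188 for the mog genes, 226 for these lists and 210 for all coding genes. The mog peaks were spread widely: 97.2% of marked coding genes had a weaker peak than mog-4, 60.1% than mog-3, 20.4% than mog-5 and 9.81% than mog-1.

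Of the other helicase genes listed, 6 of 8 were marked. The highest was hel-1, for the UAP56 helicase that acts early in assembly, with 170 in replicate 1, 262 in replicate 2 and 433 pooled. The lowest was rha-2, with 33.8 and 53.1 and 85.5 pooled, close to mog-1. A role of rha-2 in the spliceosome is not established here. ddx-15, for the helicase that takes spent spliceosomes apart, had 298 pooled, in a peak shared with ucr-1. Thus mog-4, at 897, exceeded each of the 6, and mog-5 and mog-1 stood below 5 of them. The unmarked ones were snrp-200 and sacy-1, and both were the second gene of a close run, like mog-2.

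The list for partners of mog-2 in the U2 snRNP and of the SF3 complex also holds the U2AF genes uaf-1 and uaf-2. It was marked at 4 of 10, from 127 at prp-21 to 377 at sftb-1, for a subunit of SF3b. Of the U2AF genes, uaf-2 was marked, at 161, and uaf-1 was not. The peak at sftb-1 was shared with R10E4.1 and that at prp-21 with gldi-1. The genes rnp-2 and rnp-3, for RNA-binding proteins of the U1 and U2 snRNPs, had no pooled candidate within 500 bp. As at mog-2, both replicates had a peak at rnp-2, 105 and 131 bp upstream, with signals of 85.3 and 79.9, and rnp-3 follows it as the later gene of the same run.

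Of the genes for the Prp19-related proteins and the catalytic steps, which act with the helicases of mog-1 and mog-5 and with CWC25, 6 of 11 were marked. They ran from 127 at syf-1, in a peak shared with T03F1.12, to 594 at prp-8, for the protein at the spliceosome's core, which had 292 and 305 in the replicates. Of 5 unmarked genes, prp-19, cdc-5L and prp-17 had no candidate of any list within 500 bp. Any pooled candidate at that distance was present at 33.0% of all coding genes. That share is of the pooled list alone, and the one over every list was not counted.

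In the list of germline genes tied to the mog genes, 5 of 13 were marked. lin-53, for a histone-binding chromatin protein, was highest with 852 pooled, in a peak shared with nra-2. cyn-4, also known as a mog gene and encoding a cyclophilin, had 250 in replicate 1, 246 in replicate 2 and 503 pooled, in a peak shared with copz-1. mep-1, for a zinc finger protein that binds MOG proteins, was lowest of the 5 with 113 and 163 and 277 pooled, shared with 3 RNA genes. nos-3 had 456, in a peak shared with Y53C12B.1, and atx-2 had 322. Of the 8 unmarked genes, let-418 had a pooled candidate of 51.7, at rank 8296 and 142 bp upstream. It had 34.6 in replicate 1 and 22.8 in replicate 2. A weaker pooled candidate, of 9.05, stood at laf-1. The RNA regulators gld-2, gld-3, fbf-1, fbf-2 and puf-8 had no candidate of any list within 500 bp, and gld-1 had one in replicate 2 alone, at 5.22. Among all coding genes 33.0% had any pooled candidate within 500 bp, so absence from the pooled list is common. How many coding genes lack a candidate in every list was not counted.

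Among sex determination genes 5 of 13 were marked, and these were fem-1 (138), fem-2 (197), xol-1 (98.8), sdc-1 (153) and sdc-2 (406). The mog-repressed gene fem-3 was just below the end of the final list. Its candidate, 424 bp upstream, had a pooled signal of 68.9 at rank 6865, where the final list ends at 71.7 and rank 6675. It had 37.3 in replicate 1, at rank 6313, and 33.2 in replicate 2, at rank 7652. The sperm genes fog-1, fog-2 and fog-3 and the genes tra-1, tra-2, tra-3 and her-1 had no candidate of any list within 500 bp. Absence from the pooled list alone is common: only 33.0% of all coding genes had any pooled candidate within that distance. The share of coding genes without a candidate in every list was not counted. tra-2 is the later gene of a run whose first gene, eif-2Bgamma, had a final peak of 102.

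Including tra-2, 8 of the 55 genes were later genes of close runs, and 0 of these 8 were marked, against 8.52% of all later genes (202 of 2370), a share at which 0 of 8 is near the background. At 6 of the 8 the first gene of the run had a final peak, from 102 to 238, at rnp-3 the first gene had a peak in both replicates only, and at snrp-200 the first gene, pisy-1, had none in any list. Over all coding genes 38.1% of the 2370 later genes were in a run whose first gene was marked.

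**Figure D4:**
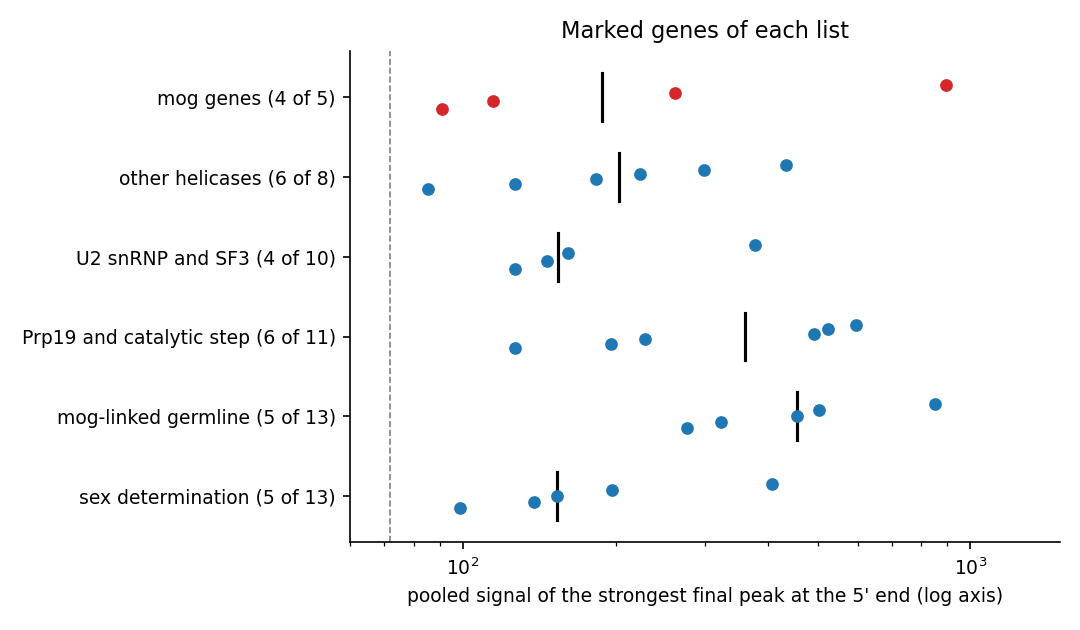
Points give the pooled signal of the strongest final peak within 500 bp of the 5' end, on a log axis, for each marked mog gene and each marked gene of the 5 lists, with the number marked of the number found beside each name. Short lines are medians and the dashed line is the lowest final signal, 71.7. The mog genes run from 91.0 to 897, and the highest point of all is mog-4.

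A peak can lie near more than 1 annotated 5' end. Among the mog genes this was so at mog-5, whose summit lay 475 bp from the 5' end of fbxl-3, a gene on the opposite strand that RefSeq describes as a putative RNA-binding protein, while the 5' end of mog-5 was nearer. The peaks at mog-1, mog-3 and mog-4 had no other annotated 5' end within 500 bp. mog-7, which is no member and was looked up after the values were seen, had a weak final peak 104 bp upstream with 34.2 and 49.5 in the replicates and 84.5 pooled.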

How the data were processed

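The authors' deposited peak lists on ce11 were used: candidates of each of 2 replicates, candidates of both pooled, and the final list thresholded by the irreproducible discovery rate, per the deposited file descriptions. The signal and the −log10 q-value per peak are the authors' values, relative to a control alignment. All 6675 final peaks had the deposited −log10 q-value of 4.38, its ceiling, so peaks were ranked by signal. Neither aligner nor peak caller is named in the sources used here. Of the ce10 lists, only the number of final peaks, 8993, was used.

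Genes came from Ensembl release 115 and sequence from RefSeq, both of WBcel235, and no coordinates were converted. Summits were assigned to 5' ends with Python 3.11.15 and pandas 2.3.3, with positions 1-based. The assignment was tested on simulated summits. With 1 group no test between conditions exists, and no test was run across genes. Each replicate alone, as its strongest 6675 candidates, gives the spread, which may be partly technical. Exact binomial (Clopper-Pearson, scipy 1.17.1) intervals cover counting error only.

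The members, the gene lists and the alternatives were chosen with earlier results of these data known. Named genes are the mog genes, genes sharing their peaks, the most alike gene of each, marked genes of the lists, the highest and lowest of each list, and snu-23. Unmarked genes, first genes of runs and mog-7 were named after their values were seen, and match distances, runs and sequence words were also chosen then.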

Additional observations from a re-analysis of the deposited data

How the results depend on the processing

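The count of 4 marked mog genes held within 250 bp, with the nearest coding 5' end only, and with RefSeq or any transcript's 5' ends. It was also 4 within 1000 bp, over all pooled candidates, and with as many pooled peaks as the 8993 on ce10, which was added after seeing the data. In these wider settings the count could not fall, since they hold the same peaks, and the pooled list had no candidate at mog-2 to add. The count was 3 to 4 with a replicate left out, where mog-5 is lost without replicate 1, and 2, mog-4 and mog-3, in the stronger 3337 final peaks. The count that includes gene bodies gave the same values of 3 to 4 and of 2. The median offset, -152 bp, ranged from -154.5 to -144 bp with a replicate left out. The count of mog genes sharing a peak was 1 with coding genes only, 0 within 250 bp and 2 within 1000 bp. The 26 marked genes of the other lists became 17 within 250 bp, against 11.4% of all coding genes. With the nearest coding 5' end only they were 18, against 13.7%, and in the stronger 3337 final peaks 18, against 10.8%. Within 1000 bp they were 27, against 21.4%. Each replicate alone also gave 27, against 17.1% in replicate 1 and 17% in replicate 2. With as many pooled peaks as on ce10 they were 28, against 19.7%. Depth is unknown, so an absent candidate does not show absent binding. No paired analysis was possible because the series has 1 group.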
